A study of Mus musculus with 16 samples.

Results

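The genes described here are the mouse cadherins and protocadherins: every gene of the array annotation whose symbol is Cdh plus a number or begins with Pcdh. Probe sets that list several symbols were left out, and the brightest probe set stood for a gene. The rule gave 57 of the 19938 genes tested, 23 with a Cdh symbol and 34 with a Pcdh symbol. Of 71 symbols in the annotation that meet the rule, the other 14, all of the alpha protocadherin cluster, share 1 probe set and were not analysed here. The data are 16 Affymetrix arrays, each with total RNA from the core of the olfactory bulb (OB) or from the subependymal zone (SEZ), the stem cell niche along the lateral ventricle that sends new neurons to the bulb. Each tissue had 3 conditional knockout (cKO) samples of genotype GlastCreERT2/Brg1fl/fl, and 5 controls, which carried GlastCreERT2 with Brg1fl/+, except SEZ control replicate 5, labelled Brg1+/+. All mice were 2.5 months old, on a mixed C57BL/6 and CD1 strain, untreated per the labels and of undetermined sex. GlastCreERT2 is a tamoxifen-dependent recombinase placed in Glast (Slc1a3), a transporter gene of astroglia and adult neural stem cells, so cells outside that lineage keep Brg1. The sources used here do not say when the recombinase was switched on. Values are log2 expression from the robust multi-array average (RMA), where a difference of 1 is a doubling, given as mean ± SD.

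Cadherins are membrane proteins whose extracellular repeats bind calcium and then bind cadherins on the neighbouring cell, mostly of the same kind. Type I and type II classical cadherins hold catenins on their inner side and through them the actin skeleton, and neurons that share a type II cadherin tend to sort together into nuclei, layers and synaptic partners. Non-clustered protocadherins of the delta groups act in cell sorting, axon growth and synapse turnover, the delta-2 group also through the WAVE complex that drives actin branching. The clustered alpha, beta and gamma protocadherins lie side by side on 1 chromosome, and each neuron uses its own small choice of them as a surface label for recognising itself. In the adult bulb and its niche, N-cadherin (Cdh2) and several protocadherins are known on stem cells, migrating neuroblasts and the dendrites of bulb interneurons.

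Promoter windows show the start regions of the members with some of the largest tissue differences: Cdh8 and Cdh9, lower in OB, and Pcdh20 and Cdh20, higher in OB. Each runs 5′ to 3′ on the gene's strand, from 250 bases before to 50 bases after the RefSeq start (build GRCm38.p6), and capitals mark every E-box (CANNTG), the core bound by many neural basic helix-loop-helix factors. The windows lie at chr8:99416422-99416721 (Cdh8, minus strand), chr15:16728665-16728964 (Cdh9, plus strand), chr14:88471347-88471646 (Pcdh20, minus strand) and chr1:104768270-104768569 (Cdh20, plus strand).
Cdh8: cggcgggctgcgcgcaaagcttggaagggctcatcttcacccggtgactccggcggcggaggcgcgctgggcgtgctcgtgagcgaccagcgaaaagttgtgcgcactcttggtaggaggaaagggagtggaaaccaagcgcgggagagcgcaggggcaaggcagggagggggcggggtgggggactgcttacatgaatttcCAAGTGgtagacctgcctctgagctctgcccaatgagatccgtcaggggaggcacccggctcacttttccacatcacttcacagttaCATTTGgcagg
Cdh9: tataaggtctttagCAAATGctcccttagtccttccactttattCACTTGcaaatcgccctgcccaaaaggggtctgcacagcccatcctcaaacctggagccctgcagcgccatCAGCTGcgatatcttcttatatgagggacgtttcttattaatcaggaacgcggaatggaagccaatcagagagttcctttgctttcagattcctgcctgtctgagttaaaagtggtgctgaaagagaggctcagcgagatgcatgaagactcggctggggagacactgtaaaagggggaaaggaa
Pcdh20: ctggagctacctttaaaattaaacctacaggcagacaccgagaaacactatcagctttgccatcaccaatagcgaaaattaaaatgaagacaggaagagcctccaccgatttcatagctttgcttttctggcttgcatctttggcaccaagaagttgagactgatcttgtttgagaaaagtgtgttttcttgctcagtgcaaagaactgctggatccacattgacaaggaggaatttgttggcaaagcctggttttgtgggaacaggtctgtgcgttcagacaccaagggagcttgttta
Cdh20: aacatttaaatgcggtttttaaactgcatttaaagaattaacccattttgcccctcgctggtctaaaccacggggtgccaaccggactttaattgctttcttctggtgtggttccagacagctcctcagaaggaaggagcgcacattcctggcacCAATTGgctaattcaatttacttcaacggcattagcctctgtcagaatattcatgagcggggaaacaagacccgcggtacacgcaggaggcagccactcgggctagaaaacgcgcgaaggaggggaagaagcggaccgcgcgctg
The Cdh8 window holds 2 E-boxes, that of Cdh9 holds 3, that of Cdh20 holds 1 and that of Pcdh20 holds 0. RefSeq windows of this length were taken for 22 of the 57 members, 25 windows in all. Members on the chromosome of the beta cluster (Cdh2, all beta genes, Pcdh1 and Pcdh12) were left out of this search. The set of all windows had no such limit. At least 1 E-box was found in 15 of these 25, against 72.3% of all 32851 windows. On either strand, a homeodomain core (TAATTA) was in 1 member window (5.29% of all), a Sox core (AACAAT) in 0 (10.7% of all), a GC box (GGGCGG) in 9 (35.7% of all) and a TATA box (TATAAA) in 2 (13.6% of all). The median count of CG pairs was 14 in the member windows and 7 in all windows, and the median GC content was 60.3% and 52.7%. These matches describe letters in the windows only.

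Several arrays stood apart from their groups. Slc1a3 was 8.85 in OB and 8.16 in SEZ of cKO replicate 3, while the other 14 arrays lay between 11.16 and 12.27. Xist, which is on in female cells, was 12.40 in SEZ cKO replicate 1 and 6.08 in OB cKO replicate 1, so these same-numbered arrays did not match in sex, whereas the other 7 numbers did. Smarca4, the gene of Brg1, lay between 10.97 and 11.09 in OB cKO, 10.95 and 11.06 in OB controls, 10.62 and 10.77 in SEZ cKO and 10.66 and 10.78 in SEZ controls. The sources used here do not say which exons its probe set reads, and it does not check the deletion. SEZ control replicates 2 and 4 had raised cortical neuron markers, with list means of 7.96 and 8.36, where replicates 1, 3 and 5 ran from 7.04 to 7.23. Without SEZ control replicates 2 and 4, the tissue calls in controls numbered 25 higher and 8 lower, against 26 and 8 with them: those of Cdh5 and Pcdhb10 were lost, and Cdh15 became lower in OB (-0.29, adjusted p = 0.0303).

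The cadherins and protocadherins separated the tissues in both directions. In controls, 26 of the 57 were higher in OB (12.6% of all genes were) and 8 were lower (14.9% of all genes), at an adjusted p under 0.05 from limma over all genes. The called share was 59.6%, against 27.5% over all genes. Brighter genes were called more often. In a fit of only the 9969 genes above the median level, 2036 were higher and 2142 lower in controls. Of the 57 members, 54 lay above the lower quartile of gene means, and the part of level in their share was not tested. The median difference of OB minus SEZ was 0.26 over the members and 0.0034 over all genes, and the median size without sign was 0.41 against 0.12. At 9 members the difference exceeded a doubling. In cKO arrays, 20 were higher (10.0% of all genes) and 8 were lower (13.1% of all genes). Without cKO replicate 1 of both tissues the lower count was 5 instead of 8, with the calls of Cdh5, Pcdh17 and Pcdhb1 lost. The control and cKO comparisons share no arrays, but they share the normalization run and the estimate of spread. All 34 differences called in controls had the same sign in cKO, and 26 were called in both, 76.5% of the calls in controls and 92.9% of those in cKO. Across the 57 genes the differences in controls and in cKO correlated with r = 0.98, a description over genes of 1 array run.

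**Figure D1:**
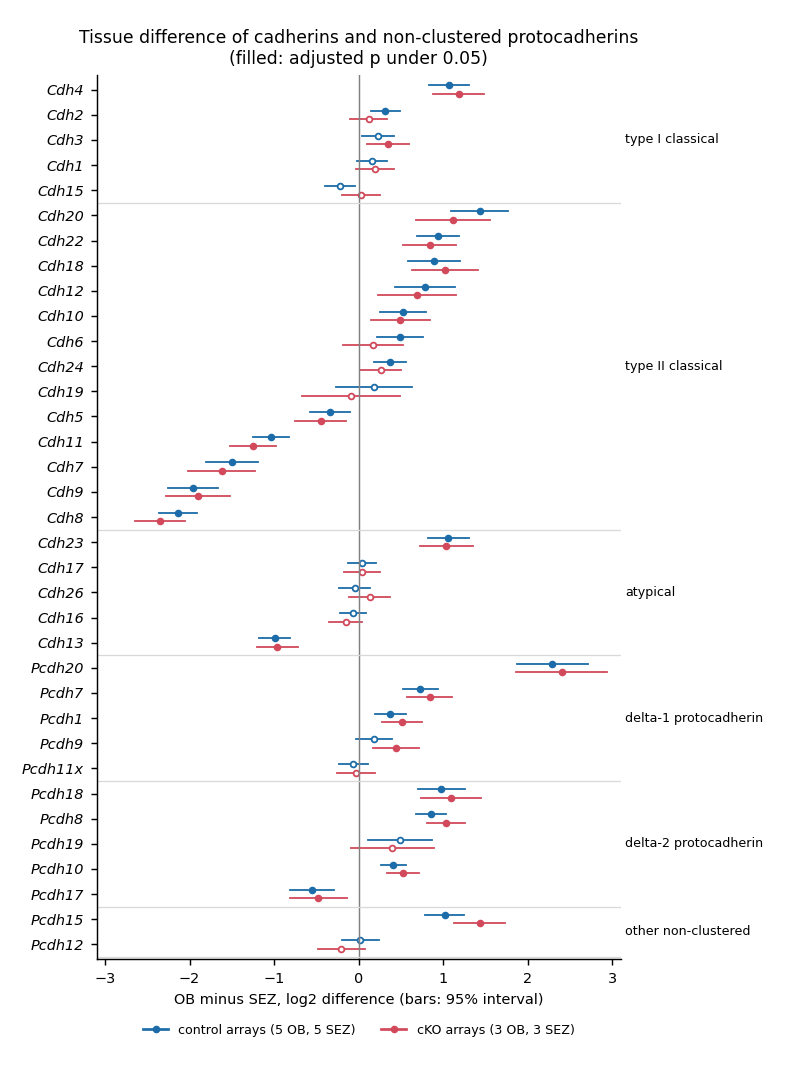
OB minus SEZ on the log2 scale for the 35 cadherins and non-clustered protocadherins, grouped by class and ordered within it by the control value; blue, control arrays (5 per tissue); red, cKO arrays (3 per tissue); bars, 95% intervals from limma; filled points, adjusted p under 0.05. Type II cadherins span from -2.14 (Cdh8) to 1.43 (Cdh20) in controls, and the red points follow the blue ones.

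Type II classical cadherins, a family whose members mark neuron groups, differed most often. In OB of controls 7 of 13 were higher and 5 lower, against 12.6% and 14.9% of all genes, and Cdh19 was not called. Cdh8, known from striatal, thalamic and cortical neurons, read 11.12, 10.66, 11.11, 10.76 and 10.67 in the SEZ controls and 8.84, 8.63, 8.52, 8.74 and 8.89 in the OB controls. The cKO arrays read 10.62, 10.88 and 11.03 in SEZ and 8.56, 8.49 and 8.41 in OB. No OB array reached any SEZ array, and the level in OB was 4.41-fold lower in controls (-2.14 ± 0.11 SE, adjusted p = 9.26e-11) and 5.10-fold lower in cKO (-2.35 ± 0.14 SE, adjusted p = 1.31e-09). Within the SEZ controls, replicates 1 and 3 were the high ones. Cdh9, which helps shape synapses of particular neuron types, read 9.62, 9.57, 9.95, 10.01 and 9.46 in SEZ controls and 7.85, 7.42, 8.05, 7.71 and 7.76 in OB controls. The cKO arrays gave 9.54, 9.91 and 9.91 in SEZ and 7.70, 8.21 and 7.74 in OB. Again the tissues did not overlap, with OB 3.90-fold lower in controls (-1.96 ± 0.14 SE, adjusted p = 5.94e-09) and 3.74-fold lower in cKO.

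Cdh7, a type II cadherin of many brain nuclei, read 8.64, 9.27, 8.71, 9.50 and 9.37 in SEZ controls and 7.80, 7.39, 7.66, 7.57 and 7.58 in OB controls. OB was lower by 2.82-fold in controls (-1.50 ± 0.15 SE, adjusted p = 3.75e-07) and by 3.08-fold in cKO, without overlap. SEZ control replicates 1 and 3 were the low ones for Cdh7, and without both the difference was -1.78. Cdh11, found in neurons and in mesenchymal and meningeal cells, read 10.77, 11.04, 10.89, 11.11 and 11.08 in SEZ controls and 10.00, 10.01, 9.75, 9.88 and 10.07 in OB controls. The tissues did not overlap, and the fold was 2.05 in controls (-1.04 ± 0.10 SE, adjusted p = 3.02e-07) and 2.38 in cKO, with the lowest OB value, 9.36, in cKO replicate 3. Cdh5, the VE-cadherin of endothelial junctions, was lower by a small step in controls (-0.34 ± 0.11 SE, adjusted p = 0.0284). Its OB and SEZ control values, 8.48 to 9.0 and 8.87 to 9.08, overlapped. The adjusted p exceeded 0.05 when any 1 of OB control replicates 3, 4 and 5 or SEZ control replicates 2, 4 and 5 was left out. It was 0.134 with SEZ control replicates 2 and 4 both left out. Of the endothelial marker list, 3 of 5 genes were lower in OB of controls (14.9% of all genes were) and 2 of 5 in cKO (13.1%). The 5 differences in controls ran from -0.36 to 0.08, and the part of this list in the Cdh5 values was not tested.

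Among the type II cadherins higher in OB, Cdh20 read 9.99, 10.25, 10.17, 10.26 and 10.36 in OB controls and 8.38, 8.86, 8.46, 8.94 and 9.24 in SEZ controls. The cKO arrays gave 10.01, 10.23 and 9.61 in OB and 9.01, 9.03 and 8.47 in SEZ. All OB arrays lay above all SEZ arrays, by 2.70-fold in controls (1.43 ± 0.16 SE, adjusted p = 1.97e-06) and 2.17-fold in cKO. Cdh22 (PB-cadherin), named for its pituitary and brain expression, was at 10.88 ± 0.17 in OB controls and 9.94 ± 0.18 in SEZ controls (0.94, adjusted p = 6.49e-06). Cdh18 differed by 0.89 in controls (adjusted p = 0.000121) and 1.02 in cKO, its other probe set by 0.72 and 0.83, and SEZ control replicate 4, at 8.79, stood nearest to the OB values of 8.97 to 9.31. Cdh12, with SEZ control replicate 2 as low as 8.47 and the other SEZ controls at 9.20 to 9.51, differed by 0.79 (adjusted p = 0.00171). Cdh10, a synaptic type II cadherin, was higher by 0.52 in controls (adjusted p = 0.0049), and SEZ control replicates 1 and 3 read 9.48 and 9.77 where the other 3 read 10.12 to 10.19. Without these 2 arrays Cdh10 differed by 0.31.

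Cdh6 and Cdh24 were called in controls only. Cdh6, a marker of particular neuron columns and of some stem cell domains, read 9.75, 10.16, 9.68, 9.76 and 9.69 in OB controls and 9.04, 9.24, 9.14, 9.68 and 9.51 in SEZ controls (0.49, adjusted p = 0.00906), and 0.17 separated the tissues in cKO (adjusted p = 0.545). Without SEZ control replicates 1 and 3, the call for Cdh6 was lost, at 0.33. Cdh24 was higher by 0.37 in controls (adjusted p = 0.0049) and by 0.26 in cKO (adjusted p = 0.125). Its other probe set differed by only 0.08 in controls and by 0.24 in cKO, and the mean of both gave 0.22 in controls (adjusted p = 0.0477), so the size for Cdh24 depends on the probe set. Cdh19, a cadherin of the oligodendrocyte and Schwann cell lineages, was the member of this class that was not called, at 0.18 ± 0.21 SE. Its SEZ control values split, with replicates 1 and 3 at 7.43 and 7.67 and replicates 2, 4 and 5 between 8.41 and 8.49. The same arrays split on the myelin list, whose means were 11.65 and 11.50 in replicates 1 and 3 and 11.74 to 12.05 in the other 3. On the ependyma list replicates 1 and 3 were instead the high ones, at 8.22 and 8.18 against 7.73 to 7.79, and the part of either list in the cadherin values was not tested.

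**Figure D2:**
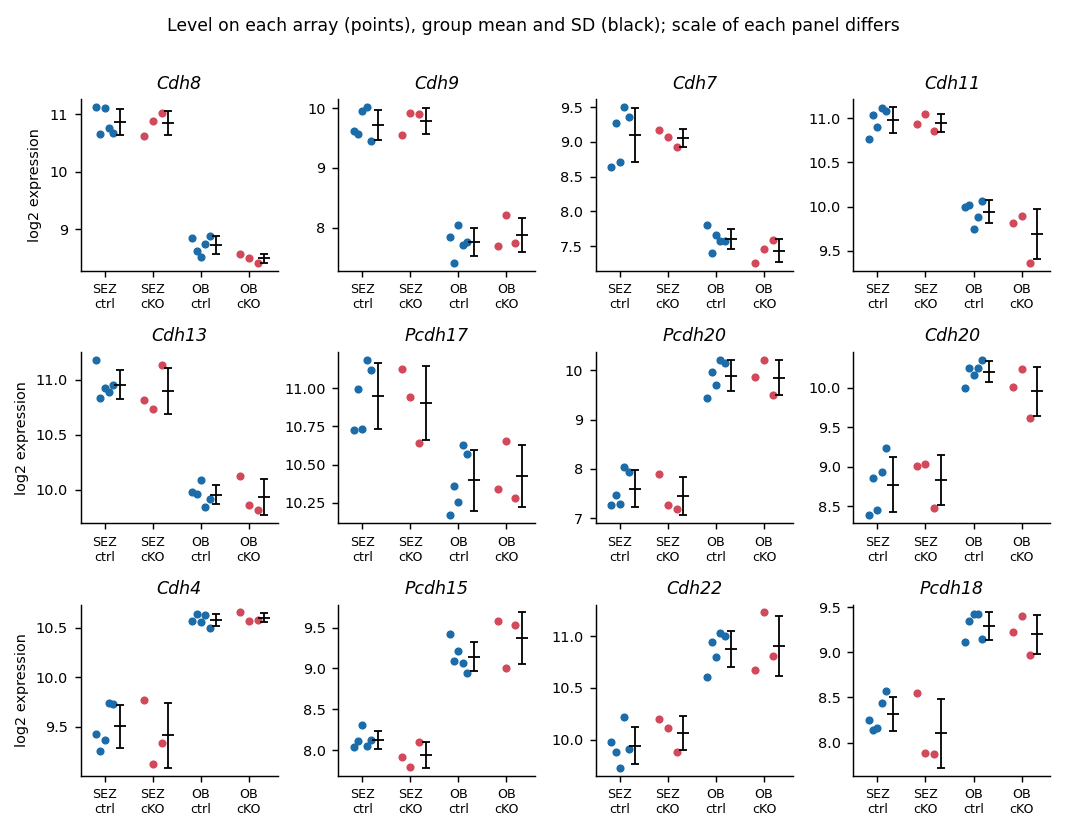
Log2 level on each of the 16 arrays for 12 members with tissue differences, 1 panel per gene with its own scale; points are arrays, black marks the group mean and its SD, blue is control and red is cKO. The group means of the 6 genes from Cdh8 to Pcdh17 are higher in SEZ and those of the 6 from Pcdh20 to Pcdh18 are higher in OB, for control and cKO arrays alike. For Pcdh17 the OB and SEZ ranges overlap in cKO.

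Type I cadherins are the strongest adhesion molecules of the family. Cdh4 (R-cadherin) was tightly grouped in OB, at 10.57, 10.63, 10.56, 10.62 and 10.49 in controls and 10.65, 10.57 and 10.58 in cKO. SEZ read 9.43, 9.26, 9.37, 9.74 and 9.73 in controls and 9.77, 9.13 and 9.34 in cKO. The gap was 1.07 ± 0.11 SE in controls (adjusted p = 7.00e-07) and 1.19 in cKO, with no overlap. Cdh2 (N-cadherin), which anchors stem cells in the niche, read 11.28 to 11.45 in OB controls and 10.97 to 11.10 in SEZ controls. That step of 0.32 was called (adjusted p = 0.00536), while the cKO value of 0.12 was not (adjusted p = 0.482), with overlapping ranges of 11.01 to 11.48 in OB and 10.96 to 11.18 in SEZ. Cdh3 (P-cadherin) was called in cKO only, at 0.35 (adjusted p = 0.0417), and was 0.23 in controls (adjusted p = 0.075). In controls Cdh3 passed with the replicate block (adjusted p = 0.0461), a term for arrays of the same number across both tissues and both genotypes. Its cKO call was lost without any 1 of replicates 1 and 3 of OB cKO or SEZ cKO, OB control replicates 3 and 4 or SEZ control replicate 2, with an adjusted p of up to 0.169. Cdh1 (E-cadherin) and Cdh15 (M-cadherin of muscle and cerebellum) were not called in either genotype with all arrays.

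Of the 5 atypical members, Cdh13 and Cdh23 were called. Cdh13 (T-cadherin), which is held by a lipid anchor and lacks the catenin-binding tail, read 11.18, 10.84, 10.92, 10.88 and 10.95 in SEZ controls and 9.98, 9.96, 10.09, 9.84 and 9.92 in OB controls. No OB array came near the SEZ arrays, and OB was 1.99-fold lower in controls (-0.996 ± 0.089 SE, adjusted p = 1.17e-07) and 1.95-fold lower in cKO. Cdh23, a tip link cadherin of the inner ear hair cell, was 8.16 ± 0.14 in OB controls and 7.10 ± 0.24 in SEZ controls (1.06, adjusted p = 1.35e-06), and 1.04 apart in cKO. Pcdh15, the partner of Cdh23 in that tip link, stood at 9.42, 9.09, 9.21, 9.07 and 8.94 in OB controls and 8.04, 8.11, 8.31, 8.05 and 8.12 in SEZ controls. It was 2.02-fold higher in OB of controls (1.02, adjusted p = 1.43e-06) and 2.70-fold higher in cKO (1.43, adjusted p = 7.70e-07). Its other probe set differed by 0.75 in controls. The remaining atypical members are Cdh16 of kidney, Cdh17 of intestine and liver, and Cdh26. Their differences lay between -0.06 and 0.04 in controls and none was called. Cdh17, Cdh26 and Pcdhb1 had mean levels below the lower quartile of all gene means, 6.54, where array values carry little signal over background.

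Non-clustered protocadherins leaned to OB: 7 of 12 were higher and 1 lower in controls, against 12.6% and 14.9% of all genes. In cKO 8 were higher and 1 lower, against 10.0% and 13.1% of all genes. Pcdh20 had the largest difference of all members, reading 9.44, 9.96, 9.71, 10.21 and 10.15 in OB controls and 7.27, 7.47, 7.29, 8.05 and 7.94 in SEZ controls. The cKO arrays gave 9.86, 10.21 and 9.50 in OB and 7.90, 7.27 and 7.18 in SEZ. All OB arrays were above all SEZ arrays, by 4.90-fold in controls (2.29 ± 0.20 SE, adjusted p = 7.82e-08) and 5.29-fold in cKO (2.40 ± 0.25 SE, adjusted p = 1.53e-06). Pcdh7, a delta-1 protocadherin of neurons, was at 10.25 ± 0.14 in OB and 9.52 ± 0.12 in SEZ controls (0.73, adjusted p = 1.69e-05). Pcdh1 differed by 0.37 in controls (adjusted p = 0.00339) and 0.51 in cKO. Pcdh9 passed in cKO only, at 0.45 (adjusted p = 0.0177), against 0.18 in controls (adjusted p = 0.212), and its other probe set gave 0.43 and 0.21. The cKO call of Pcdh9 was lost without OB cKO replicate 3 (0.38, adjusted p = 0.0825) or SEZ cKO replicate 3 (0.34, adjusted p = 0.0907). Pcdh11x was not called in either genotype.

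In the delta-2 group, Pcdh18 read 9.12, 9.34, 9.42, 9.43 and 9.14 in OB controls and 8.25, 8.14, 8.16, 8.44 and 8.58 in SEZ controls. The tissues were apart by 0.98 ± 0.13 SE in controls (adjusted p = 1.52e-05) and 1.10 in cKO, where SEZ replicate 1, at 8.54, was well above the 7.89 and 7.88 of the other 2. Pcdh8, an activity-regulated protocadherin also called arcadlin, stood at 8.32 ± 0.10 in OB and 7.46 ± 0.14 in SEZ controls (0.86, adjusted p = 3.02e-07) and differed by 1.04 in cKO. Pcdh10 was at 11.65 ± 0.05 and 11.24 ± 0.14 (0.41, adjusted p = 0.000163). Pcdh17, which recruits the WAVE complex in growing axons, was the delta-2 member lower in OB: 10.17, 10.36, 10.25, 10.63 and 10.57 in OB controls against 10.72, 10.99, 10.73, 11.19 and 11.12 in SEZ controls (-0.55, adjusted p = 0.00221). Replicates 4 and 5 were the highest control arrays for Pcdh17 in both tissues. In cKO the Pcdh17 difference was -0.48 and called, with overlapping ranges of 10.28 to 10.66 in OB and 10.64 to 11.12 in SEZ. That call held under 22 of 32 alternatives. Pcdh19, an X-linked epilepsy gene, read 8.84, 9.11, 8.27, 9.01 and 9.22 in OB controls and 8.09, 8.51, 8.06, 8.62 and 8.73 in SEZ controls. Its difference of 0.49 missed the threshold in the main fit (adjusted p = 0.0524) and passed it with the replicate block (adjusted p = 0.0105). That block spans both genotypes and is not a pairing within controls. The OB array was the higher one of each 2 control arrays of the same number. Pcdh12, a vascular protocadherin, was not called in either genotype.

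Beta protocadherins moved by smaller steps. Of the 22, 9 were higher in OB of controls (12.6% of all genes were), 1 was lower (14.9%) and 12 were not called. The median difference was 0.25. With the replicate block, Pcdhb12 was called as well (0.24, adjusted p = 0.0340, against 0.139 without it). In cKO, 4 were higher (10.0% of all genes) and 1 lower (13.1%), with a median of 0.21. The called share of the cluster in cKO, 22.7%, was near the 23.1% of all genes. Pcdhb1, at the start of the cluster, was the lower one, at 6.06 ± 0.13 in OB and 6.52 ± 0.23 in SEZ controls (-0.46, adjusted p = 0.00167), close to background. Pcdhb2, its neighbour, read 9.11, 8.64, 8.75, 9.14 and 9.27 in OB controls and 8.19, 8.06, 7.86, 8.55 and 8.35 in SEZ controls. That difference of 0.78 was called (adjusted p = 0.00517). The same in cKO, 0.68, was not called (adjusted p = 0.0625), where OB replicate 3 read 8.03 against 8.98 and 9.13. With the replicate block the adjusted p in cKO was 0.00505, although a shared number need not mark 1 animal. Pcdhb15 read 9.48, 9.62, 9.51, 9.66 and 9.59 in OB controls and 9.002, 8.83, 9.19, 9.17 and 9.04 in SEZ controls (0.53, adjusted p = 3.26e-05), with no overlap in either genotype. Pcdhb18 differed by the same 0.53 in controls (adjusted p = 0.000745) and by 0.64 in cKO.

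The other beta members higher in controls were Pcdhb3 (0.55), Pcdhb16 (0.44), Pcdhb4 (0.43), Pcdhb11 (0.43), Pcdhb10 (0.35) and Pcdhb21 (0.31), and of these Pcdhb4 and Pcdhb11 were also called in cKO. The cKO call of Pcdhb4 was lost without OB cKO replicate 1 or SEZ cKO replicate 3, and that of Pcdhb11 without OB cKO replicate 1 or 2 or SEZ cKO replicate 1. Single arrays carried some of these calls. Pcdhb10 lost its call without any 1 of OB control replicates 1, 4 and 5 or SEZ control replicates 1, 2 and 5, down to 0.26. Pcdhb21 lost it without OB control replicate 1 or 5 or SEZ control replicate 1 or 3, and Pcdhb3 without OB control replicate 1 or SEZ control replicate 2. The beta genes are close copies, so a probe set may take RNA of a neighbouring copy and single beta members are uncertain. The mean level over the 22 probe sets ran from 8.17 to 8.47 in OB controls and from 7.96 to 8.25 in SEZ controls, so the ranges overlapped.

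**Figure D3:**
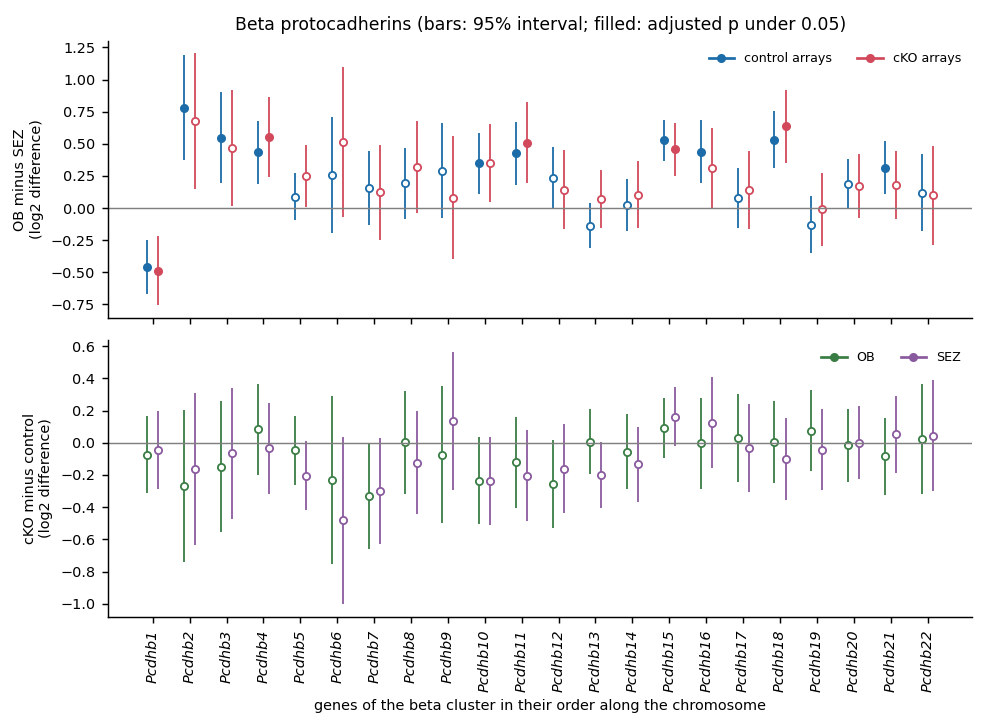
The 22 beta protocadherins in their order along the chromosome; above, OB minus SEZ in control and cKO arrays; below, cKO minus control in OB and SEZ, all on the log2 scale with 95% intervals; filled points have an adjusted p under 0.05. Above, Pcdhb1 alone is called lower and 9 genes are called higher in controls; below, no point is filled.

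Members that lie next to each other did not share a direction throughout, by the gene order of RefSeq. Cdh8, Cdh11 and Cdh5, with 0 protein-coding genes between them, were all lower in OB. In the run Cdh6, Cdh9, Cdh10 and Cdh12, also with 0 genes between, Cdh9 was lower and the other 3 were higher. Cdh18, after 1 further gene, was higher. Pcdh8, Pcdh17, Pcdh20 and Pcdh9 follow each other with 1, 2 and 0 genes between, and their differences in controls were 0.86, -0.55, 2.29 and 0.18.

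Neurons and glia of the tissues differ, and many markers of cell types were called between OB and SEZ. Of all genes, 12.6% were higher and 14.9% lower in OB of controls. All 8 granule and periglomerular markers were higher in OB of controls, with list means of 11.56 to 11.66 against 8.79 to 8.995 in SEZ. All 6 measured striatal projection neuron markers were lower, at 9.01 to 9.17 in OB against 12.69 to 12.87 in SEZ. Of the other lists, 4 of 6 mitral and tufted cell markers and 5 of 7 neuroblast markers were higher in OB, and all 5 ependyma markers, all 5 markers of dividing cells and all 4 measured myelin markers were lower. In whole tissue, fewer cells of a type and less RNA per cell cannot be told apart. The part of these lists in the cadherin differences was not tested.

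Lists of cadherin partners are given beside the shares of all genes, 12.6% higher and 14.9% lower in controls. Of 15 catenins and other cytoplasmic partners, 3 were higher in OB of controls (20.0%) and 5 lower (33.3%), and 2 and 4 in cKO. Jup (plakoglobin), a catenin of junctions and desmosomes, read 11.61, 11.38, 11.69, 11.61 and 11.57 in OB controls and 11.07, 10.65, 10.93, 10.77 and 10.78 in SEZ controls (0.73, adjusted p = 4.51e-06). Ctnna1 and Ctnna3, alpha-catenins that link to actin, were lower in OB by -0.79 and -0.85, as was the actin linker Vcl (-0.57). Ctnnb1 (beta-catenin), at 0.15, and Ctnna2, the neuronal alpha-catenin, at -0.11, were not called. Of 21 other members of the cadherin superfamily, 5 were higher (23.8%) and 9 lower (42.9%), and 5 and 8 in cKO. Cdhr1, a photoreceptor cadherin also known from mitral and tufted cells, differed by 3.01 (adjusted p = 1.60e-05), with SEZ controls spread from 7.46 to 9.56. Fat1, a giant cadherin that regulates actin, was higher by 1.16, while Cdhr4 and Cdhr3, both known from ciliated cells, were lower by -2.08 and -1.37. Of 13 proteases, kinases and actin regulators, 2 were higher (15.4%, near the share of all genes) and 4 lower (30.8%), and 1 and 3 in cKO. Fyn, a kinase that acts below clustered protocadherins, was higher by 0.91, and the WAVE complex genes Wasf1, Cyfip2, Abi1 and Abi2 were lower by -0.43, -0.29, -0.37 and -0.19. Nckap1, also of that complex, was at -0.38 and not called (adjusted p = 0.0581), and in cKO Abi2 was not called. Of 14 regulators of protocadherin promoters, 3 were higher (21.4%) and 0 lower, and 4 and 0 in cKO. Those in controls were the cohesin genes Smc3 (0.65) and Smc1a (0.31), and the DNA methyltransferase Dnmt1 (0.56). Ctcf, the loop anchor of the clusters, was at 0.12 and not called.

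Comparison of cKO with control asks whether these genes depend on Brg1, the motor subunit of SWI/SNF remodellers, which shift nucleosomes. In OB, 0 of the 57 members were called by limma (0.0451% of all genes were), and the adjusted p was 0.9996 at the lowest. At an unadjusted p under 0.05 the count was 2 of 57, against 700 of all 19938 genes. The differences lay between -0.33 and 0.22 with a median of 0.0041, and 45 of the 57 had a 95% interval within 0.5 of 0 and all 57 within 1. Cdh11 had the smallest p, reading 9.81, 9.89 and 9.36 in cKO and 9.75 to 10.07 in controls (-0.25, interval -0.49 to -0.01, unadjusted p = 0.0451). Only replicate 3 lay below the control range. Pcdhb7, at 8.08, 8.28 and 7.58 against 8.10 to 8.52, differed by -0.33 (unadjusted p = 0.0486), again with replicate 3 lowest. Next came Pcdhb12 (-0.26), Cdh2 (-0.17), Cdh8 (-0.23) and Pcdhb10 (-0.23), all with intervals that include 0. The cKO and control ranges overlapped for all 57 members, while 2.53% of all genes had ranges that did not.

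In SEZ, 0 of the 57 were called by limma, as were 0 of all genes (0%), and the lowest adjusted p of a member was 0.9996. At an unadjusted p under 0.05 there was 1 member, against 492 of all genes. Differences lay between -0.48 and 0.28 with a median of -0.04, and 46 of 57 intervals stayed within 0.5 of 0 and 56 within 1. Pcdh12 read 6.93, 7.28 and 7.08 in cKO and 6.93, 6.90, 6.85, 6.85 and 6.56 in controls (0.28, interval 0.03 to 0.53, unadjusted p = 0.0308). Pcdhb6, at 8.88, 9.39 and 8.78 in cKO and 10.11, 8.99, 9.52, 9.67 and 9.19 in controls, differed by -0.48 (interval -1.003 to 0.04). By p, Pcdhb13 (-0.20) and Pcdhb5 (-0.20) ranked between Pcdh12 and Pcdhb6, and Pcdh8 (-0.19) and Pcdhb7 (-0.30) came after Pcdhb6. Group ranges overlapped for all 57, against 2.00% of all genes without overlap. Over the beta cluster, 14 of 22 differences were below 0 in OB (median -0.05) and 16 of 22 in SEZ (median -0.08). Of all 19938 genes, 10379 were below 0 in OB and 9566 in SEZ.

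**Figure D4:**
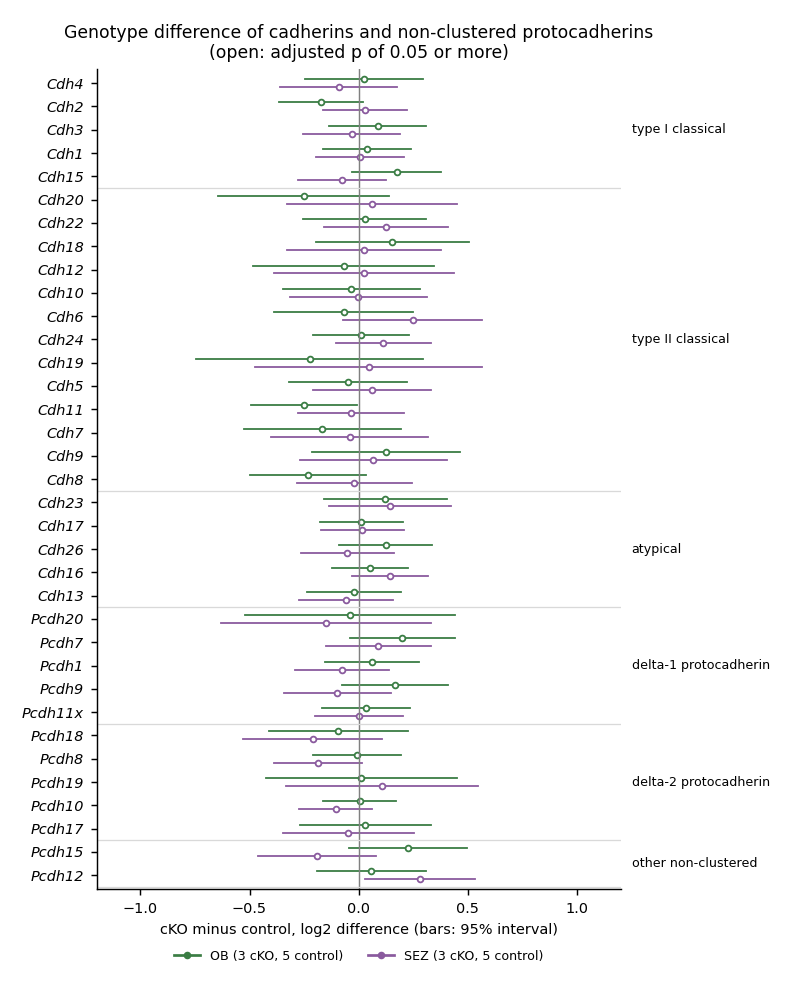
cKO minus control on the log2 scale for the 35 cadherins and non-clustered protocadherins; green, OB; purple, SEZ; each with 3 cKO and 5 control arrays; bars, 95% intervals from limma. All points are open, since none had an adjusted p under 0.05, and all lie between -0.25 and 0.28.

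The 3 cKO arrays of a tissue were not alike. cKO replicate 3 was the lowest of the 3 in both tissues for 22 of the 57 members (38.6%), among them 10 of the 22 beta genes, against 16.8% of all genes. Slc1a3 was low in the same arrays, and its part in these values was not tested. With cKO replicate 3 of both tissues left out, 0 members were called in either tissue. Pcdhb2 in OB cKO, at 8.98, 9.13 and 8.03, and Pcdhb6 in OB cKO, at 9.93, 9.71 and 8.95, show the gap.

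The test of the difference between the cKO effects in SEZ and in OB, which is also the test of whether the tissue difference depends on genotype, called 0 of 57 members by limma (0.00502% of all genes). At an unadjusted p under 0.05 there was 1 member, against 296 of all genes. Pcdh15 had the smallest p: cKO minus control was -0.19 in SEZ and 0.22 in OB, a difference of -0.41 (interval -0.80 to -0.03, unadjusted p = 0.0358, adjusted p = 0.9998). Cdh15 (-0.25), Pcdh9 (-0.26), Cdh2 (0.20), Pcdhb13 (-0.21) and Cdh6 (0.32) had intervals that include 0. The 8 members called between tissues in controls only, and the 2 called in cKO only, are thus not shown to differ between genotypes. None of the 4 lists of partners, superfamily members, downstream enzymes and promoter regulators held a gene called in either cKO comparison or in this one.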

How the data were processed

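The authors deposited log2 expression values per probe set from 16 arrays, made with RMA (background correction, quantile normalisation, summarisation) in Affymetrix Expression Console 1.2, per the submitters' processing notes. Labelling used a whole-transcript kit, per the labels' protocols. The sources used here name no genome build for the probe sets. Probe sets with 1 symbol numbered 21789 of 35556 (1621 listed several, 12146 none), and the brightest per gene gave 19938 genes. Array medians were 7.45 to 7.65, and precision is limited by the number of arrays.

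All arrays were fitted with limma 3.58.1 in R 4.3.3 (lmFit, eBayes) as 4 groups without covariates, leaving 12 residual and 4.34 prior degrees of freedom. Tests were two-sided, with Benjamini-Hochberg adjustment over all genes and a threshold of 0.05. The members, the classes, the lists and the alternatives were chosen with earlier results of these data known. Named between tissues were up to 12 called members each way with the largest differences in controls, and in each cKO comparison up to 6 by unadjusted p. Others are named to account for counts. The labels call the samples biological replicates, and the tests set each difference against the spread between them. The main fit had no term for arrays of the same number.

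On simulated data for 19938 genes with these group sizes, OB minus SEZ in controls called 79 of 100 genes seeded with 0.5 and 99 of 100 seeded with 1 (7 false calls). In cKO it called 54 and 91 (9 false calls). cKO minus control called 65 and 96 in OB and 64 and 95 in SEZ (11 false calls in each). Each simulated comparison held all its seeded genes at once, with independent noise per gene. Its adjusted cutoff was therefore looser than in the real cKO comparisons, which called 9 genes in OB and 0 in SEZ. Detection there may be lower than these counts. Same-numbered OB and SEZ arrays deviated together in controls (correlations 0.17 to 0.57) but not for all cKO numbers (-0.06, 0.25 and 0.39). OB control replicate 1 matched SEZ control replicate 3 better than its own number (0.40 against 0.33). Same-numbered arrays of different genotype were correlated too, from 0.32 to 0.43 in OB and at -0.41, 0.13 and 0.61 in SEZ. The labels do not say that a shared number marks 1 animal, and these correlations do not settle it. Sequences came from a RefSeq promoter table of GRCm38.p6, matched by symbol. Alternatives covered other probe set handling, normalization, weights, a level filter, Xist as a covariate, and arrays left out. They also held the replicate block and, apart from it, a random block for replicate numbers within each genotype (consensus correlation 0.18).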

Additional observations from a re-analysis of the deposited data

Results flagged for a closer look

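In 4 of 114 groups of 5 control arrays, 1 array stood far from the other 4 for its gene, where chance gives about 1 in 20. Cdh23 was 7.91 in OB control replicate 3 and 8.16 to 8.25 in the other OB controls. Pcdh12 was 6.56 in SEZ control replicate 5, the array labelled Brg1+/+, and 6.85 to 6.93 in the others. OB control replicate 5, of genotype Brg1fl/+, was also the lowest of its group for Pcdh12, at 6.468 against 6.815 to 7.041. Cdh12 was 10.10 in OB control replicate 5 and 9.87 to 9.93 in the others. Cdh6 was 10.16 in OB control replicate 2 and 9.68 to 9.76 in the others.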

How the results depend on the processing

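Of the 34 tissue calls in controls, 29 held under all 32 alternatives that kept the gene, and Cdh5, Cdh6, Pcdhb3, Pcdhb10 and Pcdhb21 did not. In cKO, 18 of the 26 shared calls held throughout, and those of Cdh5, Cdh10, Cdh12, Pcdh1, Pcdh17, Pcdhb1, Pcdhb4 and Pcdhb11 did not. Leaving out 1 array gave 23 to 27 higher and 7 to 8 lower calls in controls, and 15 to 21 and 6 to 8 in cKO. Other alternatives gave 20 to 29 and 7 to 9 in controls, and 15 to 22 and 5 to 8 in cKO, where the 5 came without cKO replicate 1 of both tissues, and the cause beyond fewer arrays was not tested. Cdh2 in cKO, not called at 0.12, ran from -0.0238 to 0.21, turning below 0 without OB cKO replicate 2. Each cKO comparison and the difference of effects gave 0 members under every alternative run. With the replicate block, the calls were 29 higher and 8 lower in controls and 22 and 8 in cKO, and no count moved by over 1.5 times. The added calls were Cdh3, Pcdh19 and Pcdhb12 in controls and Pcdhb2 and Pcdhb3 in cKO (Pcdhb3 adjusted p = 0.0364), and no call of another member changed. SEZ control replicates 1 and 3 were left out together as an alternative chosen after seeing the data, which gave 25 higher and 8 lower calls in controls. Only genes above the median level kept 36 of the 57 members. Weak signal over background limits Pcdhb1, Cdh17 and Cdh26, and 3 cKO arrays per tissue limit the genotype comparisons.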
